A study of Danio rerio with 6 samples.

Results

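The epidermal growth factor (EGF) family genes considered here are 4 ligands (tgfa, hbegfa, hbegfb and egf) and 5 receptors (egfra, erbb2, erbb3a, erbb3b and erbb4a) of the zebrafish, Danio rerio. All 9 were found by symbol among the 14781 genes of the deposited table. The set was built around tgfa, which was chosen by its large log2 difference between the genotypes in these same libraries, and its relatives were added by name. The values of tgfa are therefore given as a description, without a test. The tested libraries were made from larvae labelled samd7-/-, the offspring of parents that were both homozygous for the stl888 allele of samd7, a gene of a photoreceptor Polycomb protein. They were set against libraries from WT larvae of WT parents. In both groups 1 parent carried thrb:tdTomato, a red fluorescent transgene driven by regulatory sequence of thrb, which labels red cones, and fluorescent cells were sorted from larval eyes at 5 days post-fertilization. Each group had 3 libraries, each from its own clutch with 40 to 50 eyes of 20 to 25 larvae pooled. Only a subset of each clutch was genotyped, and the groups had different parents, so genotype and parental line cannot be told apart.

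Ligands of the EGF family are made as precursors anchored in the cell membrane. They are cut loose by membrane proteases, bind receptor tyrosine kinases on the same or neighbouring cells, and make those receptors pair and switch on the Ras and MAP kinase (ERK) and PI3 kinase pathways. TGF-alpha and EGF bind the EGF receptor, HB-EGF binds it and ErbB4, ErbB2 has no known ligand and acts as a partner, and ErbB3 has a weak kinase and binds neuregulins. In the zebrafish retina HB-EGF is known as a signal in Müller glia after injury, and these glia regenerate lost photoreceptors.

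The library values were read counts divided by a size factor, called normalized counts below, and whole reads could be recovered from them. The recovered total was 18418834 to 20369266 reads in libraries labelled samd7-/- (called mutant-labelled from here on) and 13435570 to 18911482 in WT libraries. A count of 0 allows up to 3 reads, or 2.24 to 3.99 normalized counts per library, which covers counting error only. The transcript of samd7 was higher in the mutant-labelled libraries, at 24329 ± 543 against 7683 ± 896 normalized counts in WT libraries (SD, n = 3 each). How the stl888 allele affects the transcript is not given in the sources used here, so that level does not check the genotype. For thrb the values were 10677 ± 604 in mutant-labelled and 14152 ± 2052 in WT libraries. They differed by -0.40 on the log2 scale (limma, adjusted p = 0.200, not passing). The thrb transcript was thus present in both groups. Cells were sorted by fluorescence of the transgene, which the thrb level does not measure. Mutant-labelled library 3 and WT library 2 each stood apart from the others of their group on the second principal component.

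Among the ligands, tgfa, which encodes transforming growth factor alpha, separated the genotypes. It had 317, 348 and 267 normalized counts in mutant-labelled libraries 1 to 3, against 18.0, 0 and 0 in WT libraries 1 to 3. In recovered reads this was 384, 466 and 306 in mutant-labelled libraries, against 15, 0 and 0 in WT libraries. Every mutant-labelled library was above every WT library, and the transcript was not detected at this depth in 2 of the 3 WT libraries. In bulk RNA, fewer cells with a transcript and less of it per cell cannot be told apart. The lowest mutant-labelled library was 14.8-fold above WT library 1, and it was at least 91.2-fold above WT library 2 and at least 66.8-fold above WT library 3 with 3 counts per library as the limit. The mutant-labelled libraries lay close together, with the highest 1.305-fold above the lowest and a coefficient of variation of 13.2%. Tested genes within 1.5-fold of the mean of tgfa over all 6 libraries had a median coefficient of 42.3% in that group. That mean is lowered by the WT libraries, so the comparison is not made at the mutant-labelled level of tgfa. As tgfa was chosen by its difference in these libraries, its close values are a description only. On the scale of log2(normalized counts + 1) the means differed by 6.86 (SE 1.47). The size depends on how the WT zeros are treated: edgeR gave 5.68 and the authors' deposited table gave 5.70. Leaving out WT library 1, the only WT library with reads, gave 8.28, and leaving out WT library 2 or 3 gave 6.15. That the groups did not overlap with tgfa higher was so for 12.1% of the 9886 genes tested. The mean of tgfa was 311 ± 41.0 in mutant-labelled and 6.01 ± 10.4 in WT libraries (SD, n = 3 each).

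**Figure D1:**
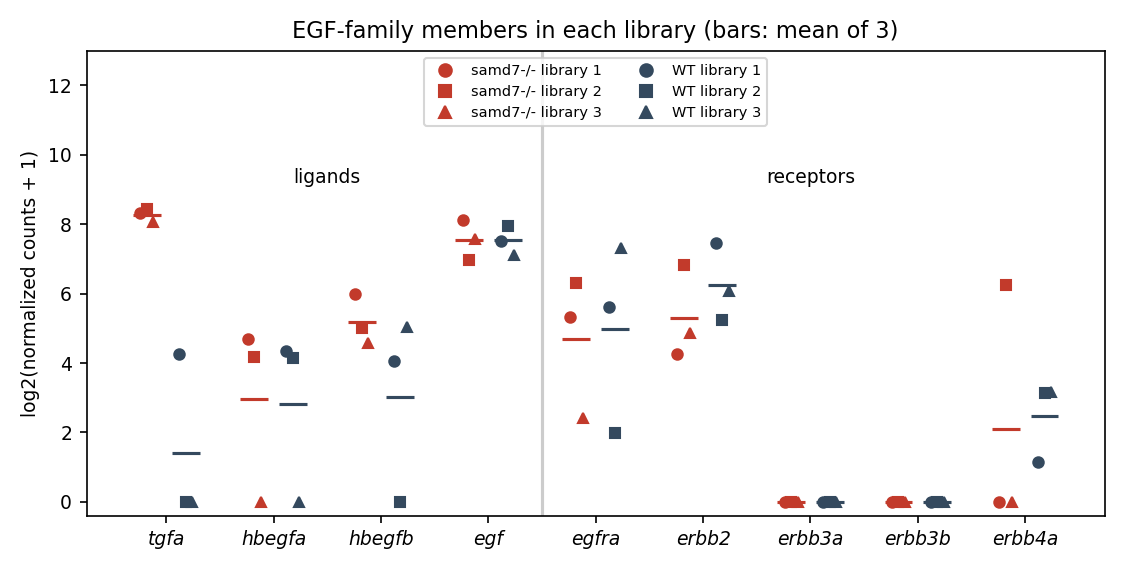
Each point is 1 library, plotted as log2(normalized counts + 1), for the 4 ligand genes on the left and the 5 receptor genes on the right, with libraries labelled samd7-/- in red, WT libraries in dark blue and a bar at each mean of 3 libraries. The groups are apart for tgfa and overlap for the other 6 genes with reads, and erbb3a and erbb3b lie at 0.

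The other ligand genes overlapped between the genotypes. The gene egf, for epidermal growth factor itself, had reads in every library, with 276, 124 and 190 normalized counts in mutant-labelled libraries 1 to 3 and 182, 248 and 138 in WT libraries 1 to 3. Its means, 197 ± 76.1 in mutant-labelled and 189 ± 55.0 in WT libraries (SD, n = 3 each), differed by 0.02 on the log2 scale, with a 95% interval from -1.08 to 1.12 (limma, adjusted p = 0.989). The interval leaves room for a change of up to about 1 log2 unit either way.

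Both copies of the HB-EGF gene had few reads, with at most 75 in any library and none in some libraries. The hbegfb values were 61.9, 31.4 and 22.7 normalized counts in mutant-labelled libraries and 15.6, 0 and 31.9 in WT libraries. The means of hbegfb were 38.7 ± 20.6 in mutant-labelled and 15.9 ± 16.0 in WT libraries (SD, n = 3 each). Its log2 difference was 2.15 (SE 1.72, 95% interval from -1.55 to 5.86, limma adjusted p = 0.555), and without WT library 2, which held no read, the difference was 0.64. For hbegfa the values were 24.8, 17.2 and 0 in mutant-labelled libraries and 19.2, 16.6 and 0 in WT libraries. Library 3 of each genotype thus held no hbegfa read, and the remaining libraries had 23 and 30 reads in the mutant-labelled group and 16 and 17 in WT. The log2 difference of hbegfa was 0.13, with an interval from -4.68 to 4.94 (limma, adjusted p = 0.983), which leaves room for a large difference in either direction.

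Of the receptors, the genes egfra (the EGF receptor) and erbb2 had reads in all 6 libraries, but their levels varied more between libraries of a group than between the groups. The egfra values were 38.8, 78.4 and 4.36 normalized counts in mutant-labelled libraries 1 to 3 and 48.1, 2.93 and 158 in WT libraries 1 to 3. The highest egfra library was 18.0-fold above the lowest among mutant-labelled libraries and 54.2-fold above it among WT libraries. These folds are uncertain, as the lowest libraries held 5 reads (mutant-labelled library 3) and 3 reads (WT library 2). A count of 0 also allows 3 reads. The log2 difference of egfra was -0.29 (SE 1.65, 95% interval from -3.83 to 3.25, limma adjusted p = 0.951). The sign turned when mutant-labelled library 3 (0.84), WT library 1 (0.04) or WT library 3 (0.89) was left out. The erbb2 values were 18.2, 111 and 27.9 in mutant-labelled libraries and 174, 37.1 and 66.6 in WT libraries. Its log2 difference was -0.95 (SE 1.07, 95% interval from -3.26 to 1.35, limma adjusted p = 0.693), and with 1 library left out it ranged from -1.70 (mutant-labelled library 2) to -0.36 (WT library 1).

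The neuregulin receptors were scarcely seen. Both erbb3a and erbb3b were listed at 0 in all 6 libraries. The gene erbb4a had 0, 75.4 and 0 normalized counts in mutant-labelled libraries and 1.20, 7.80 and 7.99 in WT libraries. Mutant-labelled library 2 alone supplied all 101 erbb4a reads of its group, while the WT libraries had 1, 8 and 6 reads. These 3 receptor genes were not tested, because each was under 10 normalized counts in all but at most 1 library, where the test asked for 10 or more in 3 of the 6.

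The 6 members tested thus comprise tgfa, which passed this filter through its mutant-labelled libraries, and 5 others. By limma 0 of these 5 were called at an adjusted p under 0.05, beside 5.17% of all tested genes. An unadjusted limma p under 0.05 was found for 0 of the 5, beside 1893 of the 9886 genes tested. Both edgeR and DESeq2, which called 3.83% and 8.80% of all tested genes, also called 0 of the 5. DESeq2 gave an adjusted p only to egf among the 5. The genotypes overlapped for all 5, while they did not for 24.5% of all tested genes. Differences were above 0 for 3 and below 0 for 2 of them, with a median of 0.02, beside 0.05 over all tested genes. The wide intervals of hbegfa, hbegfb, egfra and erbb2 do not show that these genes were unaffected.

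**Figure D2:**
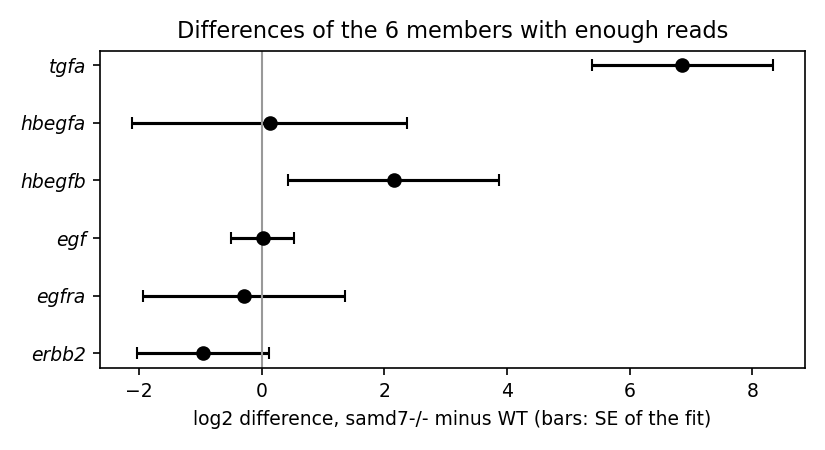
The points are log2 differences, mutant-labelled minus WT, on the scale of log2(normalized counts + 1) for the 6 members with enough reads, and the bars are the standard errors of the fit over all genes. The point of tgfa is at 6.86, those of the other genes lie between -0.95 and 2.15, and egf has the shortest bar.

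The pattern of tgfa over the 6 libraries was compared with those of 9885 other tested genes by Pearson's r on the log2 scale. The highest r was that of pcolce2b (0.996), followed by homer2 (0.994), wdr1 (0.993), lmo1 and pomp (both 0.992). Like tgfa, pcolce2b had 0 in WT libraries 2 and 3, with 3.61 normalized counts in WT library 1 and 33.9, 46.3 and 30.5 in mutant-labelled libraries 1 to 3. Its human counterpart encodes an enhancer of procollagen processing. The remaining 4 genes were present in every library. The gene homer2, a scaffold of postsynaptic receptors, had 901, 825 and 822 in mutant-labelled libraries and 534, 304 and 347 in WT libraries. The LIM-domain factor lmo1 had 1831, 1602 and 1610 in mutant-labelled libraries and 1069, 730 and 692 in WT libraries. Each of the 5 genes had its highest WT value in library 1. For pcolce2b that value rests on 3 reads, which a count of 0 also allows. An r of at least 0.95 was reached by 82 genes (0.830%). These coefficients describe 6 libraries in 2 groups, and any gene that separates the groups and is highest in WT library 1 scores high.

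The UV-cone genes tbx2a, arr3b and opn1sw1 separated the genotypes as tgfa did, and their order of libraries within a group varied from gene to gene. They belong to a list of 7 markers of UV and blue cones, which did not all follow this pattern. Of the others, tbx2b and opn1sw2 were also higher in every mutant-labelled library (r = 0.879 and 0.550 with tgfa), and foxq2 overlapped. The marker gngt2b went the other way (log2 difference -0.69, limma adjusted p = 0.121, not passing). Its mean level was above that of tbx2a, which is named outside the rule of naming markers by highest mean level. The UV-cone regulator tbx2a had 11934, 14539 and 15134 normalized counts in mutant-labelled libraries 1 to 3, against 2448, 1741 and 2238 in WT libraries (r = 0.944 with tgfa over 6 libraries). For arr3b the values were 687340, 387794 and 460194 in mutant-labelled libraries, against 3922, 9499 and 8338 in WT libraries (r = 0.865). For opn1sw1 the values were 816560, 1002890 and 1684470 in mutant-labelled libraries, against 3982, 35807 and 44596 in WT libraries (r = 0.725, limma adjusted p = 0.0720, not passing). Mutant-labelled library 3 was thus highest for opn1sw1 and tbx2a and lowest for tgfa, while mutant-labelled library 1 was highest for arr3b. WT library 1, the only WT library with tgfa reads, was lowest of its group for opn1sw1 and arr3b but highest for tbx2a. A link of tgfa to UV-cone genes was not tested.

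**Figure D3:**
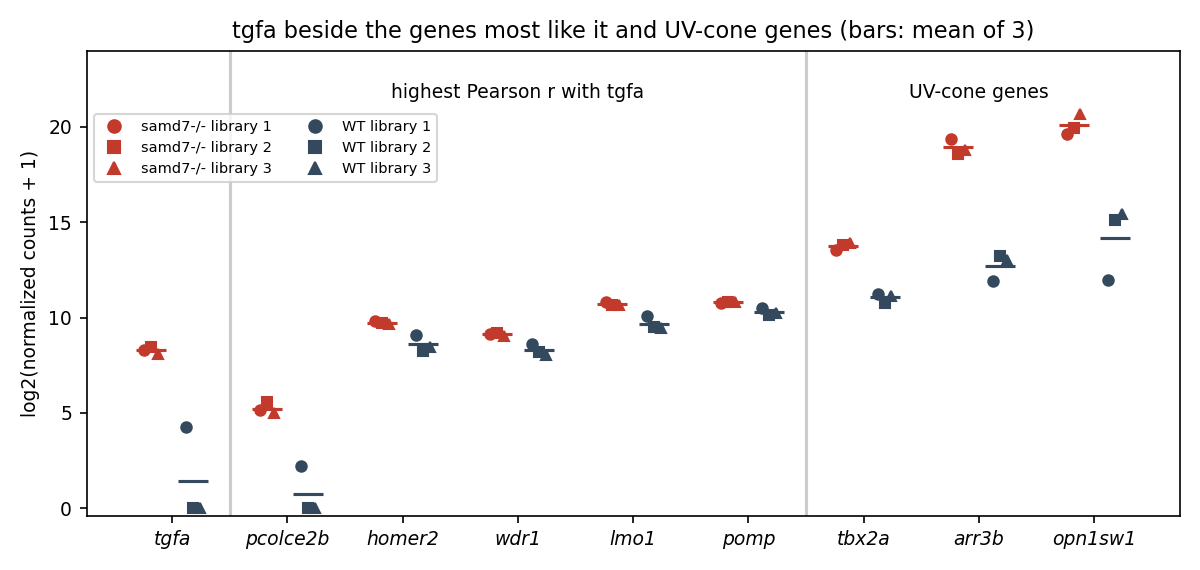
Each point is 1 library, as log2(normalized counts + 1), with libraries labelled samd7-/- in red, WT libraries in dark blue and bars at the means of 3, for tgfa, the 5 genes with the highest Pearson r with it and 3 UV-cone genes. WT library 1 (circle) is the highest WT library for tgfa, the 5 genes like it and tbx2a, and the lowest for arr3b and opn1sw1.

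The genes near tgfa in the RefSeq annotation of assembly GRCz12tu that could be tested, hdhd3, trub2, srsf3a and eif4enif1, overlapped between the genotypes. Such overlap was common, as the genotypes did not overlap for only 24.5% of all tested genes. This comparison was chosen after the values of tgfa were known. Of the 5 protein-coding genes on each side, hdhd3 had 54.5, 109 and 66.3 normalized counts in mutant-labelled libraries and 39.7, 202 and 120 in WT libraries. The next gene, trub2, had 447, 335 and 281 in mutant-labelled and 374, 278 and 276 in WT libraries. On the other side eif4enif1 had 512, 578 and 861 in mutant-labelled and 787, 614 and 510 in WT libraries. The gene srsf3a had 1489, 994 and 750 in mutant-labelled and 1159, 1306 and 1459 in WT libraries. Another gene, entpd8, had 4, 34 and 0 reads in mutant-labelled libraries and 0 in each WT library, and was not tested. The gene sxph was at 0 in every library. The genes sfi1, patz1, rab44 and slc2a11a, the last directly beside tgfa, were not found by name.

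Summed levels of marker genes of cones and of other cells also differed between the sorted samples. The counts of markers called by limma stand beside 1.26% higher and 3.90% lower over all tested genes. Markers of UV and blue cones summed to 1519350 to 2426150 normalized counts in mutant-labelled and 210023 to 266509 in WT libraries (3 of 7 tested higher, 0 lower). Most of the WT sum was gngt2b, at 194423 ± 4235 in WT and 128308 ± 57683 in mutant-labelled libraries (SD, n = 3 each). Unlike the sum, the mean of gngt2b was lower in mutant-labelled libraries. Markers of red and green cones summed to 606226 to 1175890 in mutant-labelled and 2109930 to 2300530 in WT libraries (1 higher and 4 lower of 7). Sums were also higher for Müller glia (84163 to 154092 in mutant-labelled, 54441 to 73386 in WT libraries, 1 of 12 tested higher and 0 lower), horizontal cells (29612 to 30031 in mutant-labelled, 15084 to 17538 in WT libraries, 4 of 10 higher and 0 lower) and dividing cells (57553 to 63398 in mutant-labelled, 40361 to 44044 in WT libraries, 3 of 12 higher and 0 lower). The Müller glia sum was mostly fabp7a (limma adjusted p = 0.0662, not passing) and glula, the marker called higher. The median log2 difference of the tested Müller glia markers was 0.61, with gfap, icn, her4.3 and sox2 below 0. Ganglion cell markers summed to 2074 to 2169 in mutant-labelled and 981 to 1693 in WT libraries (0 of 10 called). Sums were lower for retinal pigment epithelium (8925 to 10399 in mutant-labelled, 25784 to 29398 in WT libraries, 1 of 7 lower and 0 higher), most of it bhlhe40, and for amacrine cells (21771 to 23603 in mutant-labelled, 24831 to 29756 in WT libraries, 2 of 10 higher and 1 lower). The lower amacrine sum went with 1 gene, nptx1l, at 748 ± 376 in mutant-labelled and 8669 ± 998 in WT libraries (SD, n = 3 each). The amacrine markers called higher were tfap2b and pax6a, and the median log2 difference of the tested amacrine markers was 0.35. The amacrine sum therefore does not show a general fall of these markers. For the tested pigment epithelium markers the median log2 difference was 1.23, so their lower sum does not show a general fall either. For the remaining lists the sums overlapped. The Müller glia marker slc1a3b was at 0 in all libraries, as were gap43 and nefma of ganglion cells and th of amacrine cells. In bulk RNA, other cells in the sort and a changed level within the sorted cones cannot be told apart. The part of other cells in the level of tgfa was not tested.

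Epithelial and Müller glia markers varied between libraries of a group. The 14 markers of corneal and skin epithelium summed to 7737, 4437 and 9461 normalized counts in mutant-labelled libraries 1 to 3 and to 29349, 6921 and 3566 in WT libraries 1 to 3. WT library 1 thus had the highest sum, with 565 of epcam and 439 of tp63, and it was also the highest for erbb2. The Müller glia sums were 84163, 154092 and 112957 in mutant-labelled and 54441, 64943 and 73386 in WT libraries. Most of each sum was fabp7a and glula, which had the same order of libraries within a group. Not every listed marker had that order, and slc1a3a was at 0 in mutant-labelled library 2 and WT library 3. Within each genotype egfra was highest in the library with the highest Müller glia sum, namely mutant-labelled library 2 and WT library 3. The other libraries went the opposite way. Mutant-labelled library 3 had a higher Müller glia sum than mutant-labelled library 1 but less egfra (4.36, from 5 reads, against 38.8). WT library 2 had a higher sum than WT library 1 but less egfra (2.93, from 3 reads, against 48.1). Like egfra, erbb2 and erbb4a were highest of the mutant-labelled group in library 2. Among WT libraries erbb2 was highest in library 1, where the Müller glia sum was lowest. Whether these cells supplied reads of the receptors, or of tgfa in WT library 1, was not tested.

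**Figure D4:**
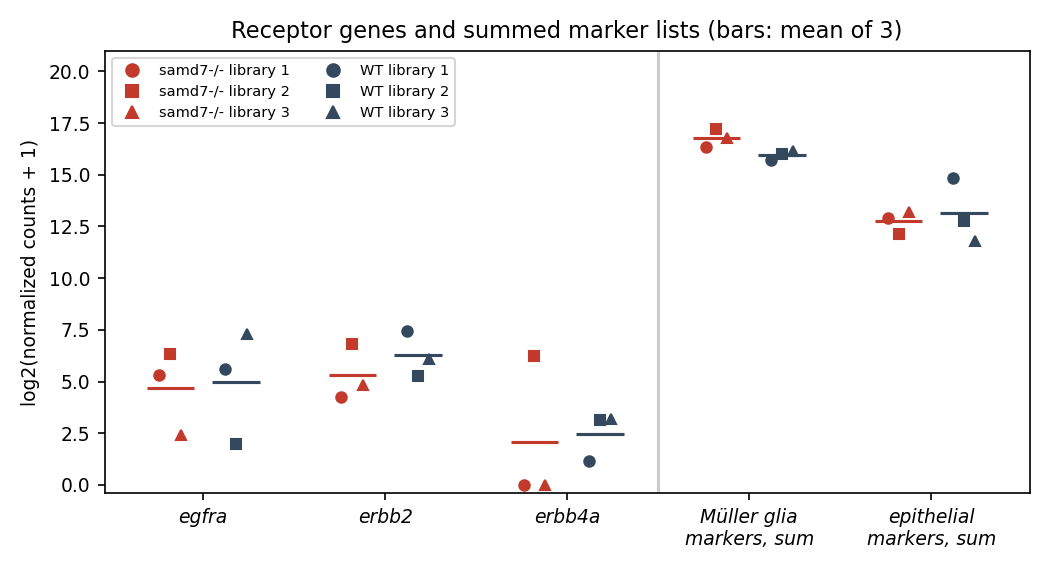
Points are single libraries as log2(normalized counts + 1) for 3 receptor genes and for the summed markers of Müller glia and of corneal and skin epithelium, with libraries labelled samd7-/- in red, WT libraries in dark blue and bars at the means of 3. Mutant-labelled library 2 (red square) is the highest of its group for the 3 receptor genes and for the Müller glia sum, and WT library 1 is the highest for epithelial markers.

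In the wider pathway, tmeff1b and pik3r3b rose, and pik3r1, pdpk1a, akt3a, dusp5 and mcl1a fell. No difference between the lists was tested. Of 139 genes in 6 lists 95 were matched and 82 tested. By limma 2 were higher and 5 lower, or 8.54%, beside 5.17% of all tested genes (1.26% higher and 3.90% lower). The median log2 difference of the 82 genes was -0.24, beside 0.05 over all tested genes. Scaling by library totals called 2 higher and 3 lower in these lists, and moved the calls over all genes to 415 higher and 252 lower, against 125 higher and 386 lower under the authors' scaling. That is 4.18% higher and 2.54% lower over the table, and the median over all genes shifted by 0.23. Without limma's trend and robust options 0 of the 82 genes were called.

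Among further ligands and receptors 2 of 16 listed could be tested. The gene tmeff1b, for a membrane protein with an EGF-like domain, rose to 1656 ± 392 normalized counts in mutant-labelled libraries, against 719.6 ± 73.4 in WT libraries (SD, n = 3 each, log2 change 1.18, SE 0.26, limma adjusted p = 0.0165). The call of tmeff1b was lost without mutant-labelled library 1, mutant-labelled library 2 or WT library 2, with adjusted p up to 0.0900. The neuregulin gene nrg1, whose product binds ErbB3 and ErbB4 in mammals, had 185 ± 143 in mutant-labelled and 194 ± 80.5 in WT libraries (log2 difference -0.25, adjusted p = 0.879). The betacellulin gene btc was listed at 0 in all 6 libraries.

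Of 8 tested genes for ligand processing 0 passed with limma, edgeR or DESeq2. An unadjusted limma p under 0.05 was found for 0 of the 8, beside 1893 of the 9886 genes tested. The highest levels in this list were those of cnih1, whose Drosophila counterpart is needed to export a TGF-alpha-like ligand, and of adam10a, a membrane protease. The cnih1 level was 2224 ± 304 normalized counts in mutant-labelled and 2584 ± 237 in WT libraries (log2 difference -0.22, limma adjusted p = 0.597). The adam10a level was 2052 ± 134 in mutant-labelled and 2322 ± 218 in WT libraries (log2 difference -0.18, limma adjusted p = 0.681). The gene of the main TGF-alpha protease in mammals, adam17a, had 189 ± 90.3 in mutant-labelled and 242 ± 148 in WT libraries (log2 difference -0.27, limma adjusted p = 0.859). It is named outside the rule for naming genes, after its values were seen.

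For the Ras and MAP kinase cascade 0 of 20 tested genes passed with limma, edgeR or DESeq2. With limma 0 of the 20 had an unadjusted p under 0.05, beside 1893 of the 9886 genes tested. The gene ptpn11b, for the phosphatase SHP2 that couples receptors to Ras, had 1959 ± 184 normalized counts in mutant-labelled and 2483 ± 675 in WT libraries (log2 difference -0.31, limma adjusted p = 0.502). The Ras gene kras had 1053 ± 281 in mutant-labelled and 761 ± 146 in WT libraries (log2 difference 0.45, limma adjusted p = 0.429).

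Of 15 tested genes of the PI3 kinase and Akt arm 1 rose and 3 fell, or 26.7% beside 5.17% over all tested genes. The regulatory subunit gene pik3r1 fell to 4680 ± 619 normalized counts in mutant-labelled libraries, against 9990 ± 784 in WT libraries (SD, n = 3 each, log2 change -1.10, SE 0.17, limma adjusted p = 0.00185). Another regulatory subunit gene, pik3r3b, rose to 2515 ± 928 in mutant-labelled libraries, against 886 ± 327 in WT libraries (log2 change 1.502, SE 0.32, limma adjusted p = 0.0153). The kinase pdpk1a, whose mammalian counterpart activates Akt, fell to 656 ± 9.81 in mutant-labelled libraries, against 1723 ± 643 in WT libraries (log2 change -1.33, limma adjusted p = 0.0131). For akt3a, an Akt kinase, the levels were 901.5 ± 192 in mutant-labelled and 1696 ± 215 in WT libraries (log2 change -0.93, limma adjusted p = 0.0444). The akt3a call was lost in 10 of 16 alternative settings, among them edgeR (adjusted p = 0.0592) and the leaving out of any library but mutant-labelled library 3. Without WT library 2 the calls of pdpk1a (adjusted p = 0.0881) and pik3r3b (0.0558) were lost too, and that of pik3r3b also if mutant-labelled library 2 (0.0563) or WT library 3 (0.0617) was left out.

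Of 17 tested feedback inhibitors 1 fell and 0 rose, or 5.88%, close to the 5.17% over all tested genes. It was dusp5, the gene of a nuclear phosphatase of ERK, with 3140 ± 668 normalized counts in mutant-labelled libraries and 11548 ± 1516 in WT libraries (SD, n = 3 each, log2 change -1.89, SE 0.20, limma adjusted p = 9.175e-05). The call of dusp5 held without each library in turn. DESeq2 also called dusp1 (adjusted p = 0.0227), a related phosphatase gene with 3213 ± 943 in mutant-labelled and 5255 ± 192 in WT libraries (log2 difference -0.75, limma adjusted p = 0.0655). Of 20 tested early and ETS targets of ERK 1 fell and 0 rose (5.00%), namely mcl1a, a survival gene of the BCL2 family, with 3756 ± 448 in mutant-labelled and 7078 ± 1798 in WT libraries (log2 change -0.89, limma adjusted p = 0.0229). The mcl1a call was lost without mutant-labelled library 2 (adjusted p = 0.0682), WT library 1 (0.115) or WT library 2 (0.0916), and under library totals (0.0630). Other genes of these lists, named with dusp1 after their values were seen, did not pass. The early gene egr1 had 1707 ± 374 in mutant-labelled and 3006 ± 982 in WT libraries (log2 difference -0.79, limma adjusted p = 0.106), and the ETS factor etv5b had 3118 ± 316 in mutant-labelled and 4764 ± 614 in WT libraries (log2 difference -0.61, limma adjusted p = 0.0791). DESeq2 called both, at adjusted p of 0.0381 and 0.0146. The phosphatase gene dusp6, often used as a readout of ERK activity in zebrafish, had 733 ± 236 in mutant-labelled and 619 ± 111 in WT libraries (log2 difference 0.21, limma adjusted p = 0.779).

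**Figure D5:**
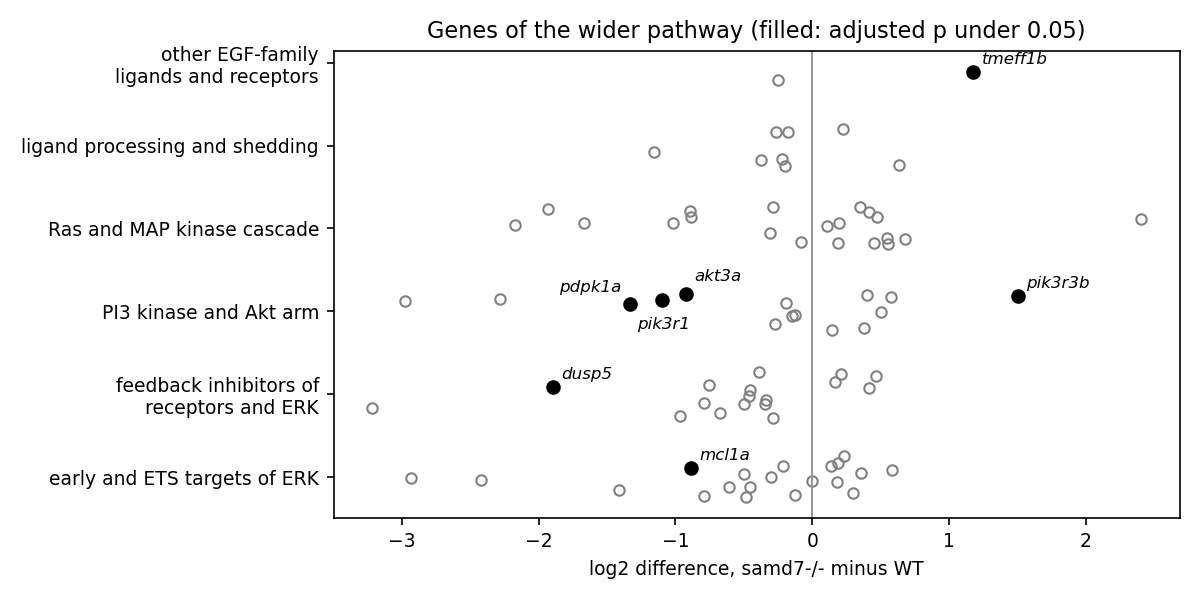
Each point is 1 of the 82 tested genes of the wider pathway, placed by its log2 difference, mutant-labelled minus WT, in rows for the 6 lists, with vertical scatter only to separate points. Filled points are genes with a limma adjusted p under 0.05 over all genes: pik3r3b and tmeff1b on the higher side, and pdpk1a, pik3r1, akt3a, dusp5 and mcl1a on the lower side.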

How the data were processed

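RNA of sorted thrb:tdTomato-positive cells was measured in 3 libraries labelled samd7-/- and 3 WT libraries. The submitters' processing notes name HTSeq 0.9.1 and STAR 2.7.2b, Trim Galore 0.6.1, R 4.1.3 with DESeq2 1.34.0 and the danRer10 genome build. The sources used here do not give the annotation, the use of strand or the treatment of reads that fit several genes. The split of reads between close copies such as hbegfa and hbegfb is therefore uncertain. Per the labels, complementary DNA was made from 300 pg of RNA with 14 cycles of amplification, and libraries with 15. The library columns that the authors deposited hold a signal, gene read counts divided by a size factor per library. Within a library 100% of values above 0 were whole multiples of 1 step to within 0.01 read, which gave back whole reads. The authors' deposited log2 fold changes and adjusted p-values are quoted only where named.

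Because the values are normalized, limma 3.58.1 (R 4.3.3; mean-variance trend, robust) was used on log2(value + 1), with genotype as the only term, for genes with 10 or more normalized counts in 3 or more libraries. The added 1 shrinks the changes of low genes, while means of logs can exceed the log2 ratio of mean levels where a library is at 0, as for tgfa and hbegfb. Genes were called at a Benjamini-Hochberg adjusted p under 0.05 over all 9886 genes. On the recovered reads edgeR 4.0.16 called 379 genes and DESeq2 1.42.0 called 870. The fits were tested on simulated data. Named genes are all members, the called genes of each pathway list (the 2 most abundant where none was called), samd7, thrb and the 5 genes most like tgfa. For cell types the rule was to name the listed markers with the highest mean level, and the other markers named are outside it. The members, lists and tests were chosen with earlier results of these data known. Replicate numbers are shared between groups, but the labels do not say that they mark a shared batch. No sequences or coordinates are given, since no sequence of the authors' build was used here.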

Additional observations from a re-analysis of the deposited data

How the results depend on the processing

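The settings tried were 2 other pseudocounts, 2 other filters, scaling by library totals or TMM, edgeR, DESeq2, limma without its trend and robust options, a replicate block and leaving out each library. In each of these 0 of the members other than tgfa that were tested were called; the filter at 50 normalized counts left egf and erbb2 of them. In each setting tgfa was higher in the mutant-labelled libraries, by 5.24 (pseudocount 5) to 8.28 on the log2 scale. As tgfa was chosen by this difference and its groups did not overlap, the direction could hardly turn. The range is a description only. Some differences changed sign with 1 library left out: hbegfa without mutant-labelled library 1 (-0.73), mutant-labelled library 2 (-0.48) or WT library 3 (-1.28), in a range up to 1.61, egf without mutant-labelled library 1 (-0.26) or WT library 3 (-0.18), in a range up to 0.31, and egfra without mutant-labelled library 3 (0.84), WT library 1 (0.04) or WT library 3 (0.89), in a range down to -1.78. The cause was not tested. With the main settings 511 genes were called over the table (125 higher, 386 lower). Without the trend and robust options 27 were called over the table (10 higher, 17 lower). In that setting 0 genes of the wider pathway were called, also 0 higher and 0 lower there. DESeq2 called 870 (325 higher) and 8 pathway genes as lower, and library totals gave 415 higher and 252 lower, with 3 pathway genes lower. With 1 library left out the table gave 225 to 573 calls (40 to 125 higher, 185 to 448 lower). Leaving out WT library 2 gave the lowest of these, and leaving out mutant-labelled library 1 gave 279 and WT library 1 gave 311. The pathway lists gave 2 to 8 calls (0 to 3 higher, 2 to 5 lower), namely 2 when WT library 2, 4 when mutant-labelled library 2 and 8 when mutant-labelled library 3 was left out. Same-numbered libraries deviated from their group means with r of 0.046, -0.034 and 0.012, so the numbers are not taken to pair libraries. With the replicate block 431 genes were called (96 higher, 335 lower), 6 of them in the pathway lists (2 higher, 4 lower) and 0 among the members other than tgfa. The genes hbegfa, hbegfb, egfra, erbb2 and erbb4a had at most 149 reads in any library and differed widely between libraries of a group; how much of that spread comes from low reads was not tested.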
